A study of Mus musculus with 6 samples.

Results

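The growth hormone receptor to Stat5 axis was followed through 10 genes in normal livers and liver tumors of male C3H mice. The genes were the growth hormone receptor gene Ghr, its kinase gene Jak2, the transcription factor genes Stat5a and Stat5b, and 6 genes known to respond to the axis, Socs2, Cish, Igf1, Igfals, Bcl6 and Cux2. They were chosen by name, as every non-control probe whose gene name in the array design, or whose accession in the current annotation, gave one of these symbols. All 10 genes were on the array, out of 34741 genes in all, with 20 probes between them. Total RNA of 3 normal livers and of 3 liver tumors was hybridised to 1-color arrays. The normal livers and the tumors all came from male C3H/HeN mice 74 to 75 weeks old, F2 animals of the control arm of a project on arsenic exposure during gestation, fed standard diet CA-1 with tap water. The tumors carried a Ha-ras mutation by the study's methods, and the sources used here name no other treatment of either group. It is not stated whether a normal liver and a tumor with the same number came from the same mouse, and the labels name no mouse for any sample. The p-values below set group differences against the spread between these samples, which is not shown to be a spread between mice.

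Growth hormone binds its receptor on the hepatocyte surface and activates the receptor-bound kinase Jak2, which phosphorylates Stat5a and Stat5b. The phosphorylated Stat5 proteins enter the nucleus and act on genes for circulating growth factors such as Igf1 and on genes for feedback inhibitors of the receptor such as Socs2 and Cish. In rodents the pituitary releases the hormone in pulses in males and more continuously in females, and the liver reads this pattern into a male or female set of expressed genes. Bcl6, a repressor, is known to be more abundant in male liver and Cux2, a homeobox factor, in female liver.

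The members were read with probes of 60 bases. For Ghr and Igf1, the first 30 bases of a pair of probes designed to different RefSeq transcripts of the gene are printed here. They are in the orientation of the array design, in lower case since no base is singled out. Whether each probe reads its own transcript alone was not tested.
Ghr, transcript NM_001048178: cttgtgggcacctgcattcatatgcacata
Ghr, transcript NM_010284: atctctttcatgcaggagagacagtgaaaa
Igf1, transcript NM_010512: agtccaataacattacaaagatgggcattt
Igf1, transcript NM_184052: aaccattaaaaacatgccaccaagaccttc

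Of the 10 members, 9 were tested and 5 fell in the tumors: Ghr, Stat5b, Igf1, Igfals and Bcl6. None rose, and Jak2, Stat5a, Socs2 and Cish did not pass the test. A call means an adjusted p under 0.05 in limma across all tested probes, and 21.0% of all tested genes were called lower and 13.1% higher by the same rule. No member was higher at an unadjusted p under 0.05 either. The median log2 fold change of the 9 members was -1.20, against -0.13 over all tested genes. In the same 5 genes every tumor lay below every normal liver, as in 33.5% of all tested genes. The lowest tumor was tumor 1 in each of the 5, and the highest was tumor 3 in 4 of them. Tumor 1 was also lowest in each of the 6 male-biased genes and 4 stellate cell markers called lower, described below. It was lowest in 1 of 6 macrophage and Kupffer cell markers called lower. The share over all genes called lower was not computed, so the order is not shown to be particular to the members. Values below are the processed signal of a probe divided by the 75th percentile of its array, on a linear scale, and fold changes are tumor against normal liver from means of log2 values. A lower value in tissue RNA can come from fewer cells of a type or from less RNA per cell, which cannot be told apart here. All normal livers were on one slide and all tumors on another, each slide scanned in its own run, so that slide and tissue cannot be told apart in any comparison.

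**Figure D1:**
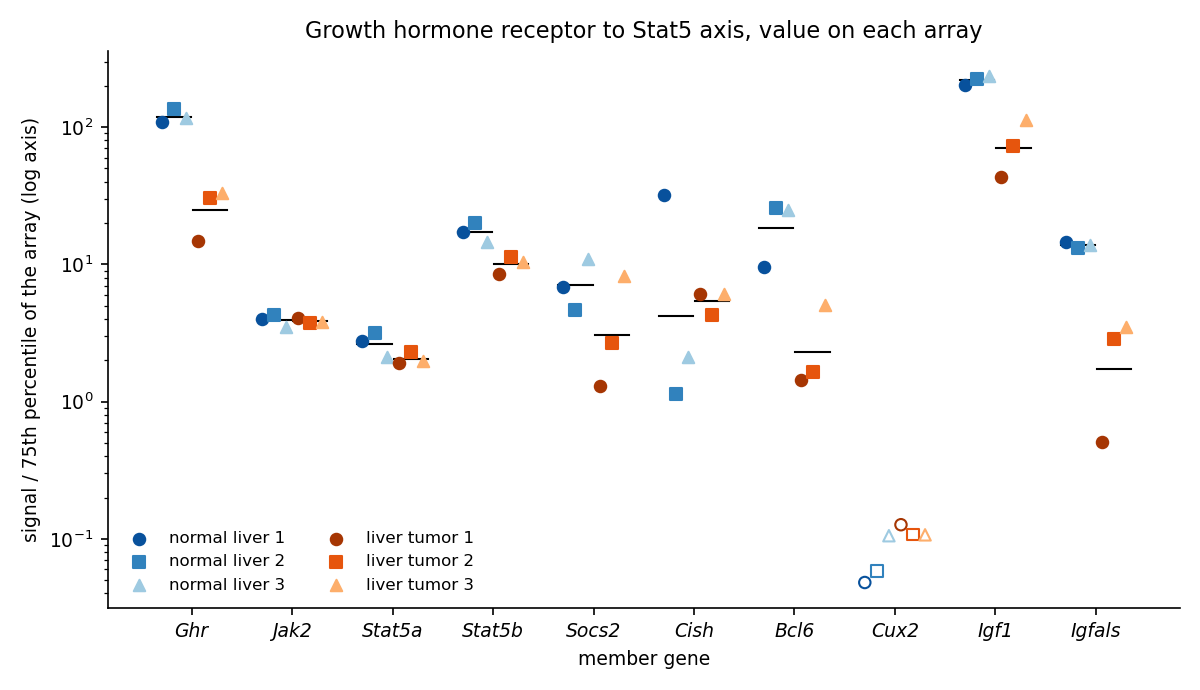
Value of each member (its brightest probe) on each array, as the signal divided by the array's 75th percentile on a log axis; blue points are the 3 normal livers, orange points the 3 liver tumors, black lines the geometric means, and open points a probe not well above background on any array. The tumors lie below all normal livers for Ghr, Stat5b, Igf1, Igfals and Bcl6, while Cish ranges from 1.14 to 31.8 in the normal livers alone.

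The receptor gene had the largest fold change among the 4 signalling genes. Ghr (chr15:3317755-3583352 in GRCm38.p6) had values of 109, 135 and 116 in the normal livers and 14.9, 30.4 and 33.3 in the tumors with the probe of transcript NM_001048178. The lowest normal liver was thus well above the highest tumor, and the spread was wider among the tumors. The log2 fold change was -2.27 (SE 0.31, n = 3 per group), that is 4.83-fold lower, with adjusted p = 0.00368 in limma. Of all tested genes, 1.42% fell further. The second Ghr probe, designed to transcript NM_010284, read 64.8, 79.5 and 65.0 in the normal livers and 11.1, 22.0 and 25.04 in the tumors. It fell by 1.93 on the log2 scale (SE 0.31, adjusted p = 0.00606), and its samples stood in the same order within each group. Within each array the first probe fell by 0.35 more on the log2 scale than the second, with tumors and normal livers apart. The exact permutation test of that difference gave the smallest two-sided p that 3 against 3 samples allow, 0.1, or 0.15 after adjustment over the 3 such pairs compared.

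Jak2, the kinase bound to the receptor (chr19:29251803-29313095), stayed in a narrow band in all 6 samples. Its values were 3.97, 4.27 and 3.52 in the normal livers and 4.03, 3.72 and 3.80 in the tumors. The groups overlapped, and the log2 fold change was -0.02 with a 95% interval from -0.30 to 0.26 (adjusted p = 0.903 in limma).

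The genes of the Stat5 pair lie next to each other on chromosome 11 and code for closely related transcription factors. Stat5b (chr11:100780731-100859004) had values of 17.1, 20.2 and 14.6 in the normal livers and 8.54, 11.2 and 10.4 in the tumors. Every tumor was below every normal liver, and the fall was 1.71-fold (log2 fold change -0.78, SE 0.17, adjusted p = 0.0161 in limma). A second Stat5b probe gave a log2 fold change of -0.75 with adjusted p = 0.0332. Without normal liver 2, the highest of the group, Stat5b was not called (adjusted p = 0.0536), nor was it with the arrays scaled to their spike-in controls (log2 fold change -0.59, adjusted p = 0.116). Stat5a (chr11:100859351-100885169) read 2.78, 3.14 and 2.10 in the normal livers and 1.92, 2.28 and 1.97 in the tumors, so that the groups overlapped. Its log2 fold change of -0.36 had a 95% interval from -0.78 to 0.06 (adjusted p = 0.158), which includes values close to that of Stat5b. Set against each other within each array, Stat5b fell by 0.41 more than Stat5a on the log2 scale, with groups apart and an exact permutation p of 0.1, or 0.15 after adjustment over the 3 pairs.

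Socs2 and Cish code for proteins that bind the activated receptor and limit its signal. Socs2 (chr10:95383903-95417321) read 6.83, 4.65 and 11.0 in the normal livers and 1.31, 2.66 and 8.23 in the tumors, each value a mean of 10 spots. Tumors 1 and 2 were below all normal livers, while tumor 3 was above 2 of the 3. The log2 fold change was -1.20 with a 95% interval from -2.82 to 0.41 (adjusted p = 0.213 in limma). A further pair of Socs2 probes read the samples alike, with log2 fold changes of -1.35 and -1.38 that were not called, and another, designed to an Ensembl transcript, stayed near background throughout. Without tumor 3, Socs2 was called lower, at a log2 fold change of -1.92 (adjusted p = 0.0317). Over all tested genes, 99.0% had a smaller SD between the tumors than Socs2.

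Cish (chr9:107296659-107302784) differed more among the normal livers than between the groups. It read 31.8, 1.14 and 2.10 in the normal livers and 6.09, 4.28 and 6.10 in the tumors, from 1 spot on each array. Normal liver 1 was far above every other sample, and the other normal livers were below all tumors. The log2 fold change was 0.35 with a 95% interval from -2.44 to 3.15 (adjusted p = 0.838), and without normal liver 1 Cish was called higher, at 1.81 (adjusted p = 0.0187). Its SD of 2.56 on the log2 scale between the normal livers was above that of nearly all tested genes. Normal liver 1 also had the lowest Bcl6 value of its group, 9.50, and the highest value of the Igf1 probe for transcript NM_184052, 11.6.

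Igf1 and Igfals code for secreted proteins of the circulating growth factor complex. Igf1 (chr10:87858265-87937047), the insulin-like growth factor made mainly by hepatocytes, read 204, 226 and 236 in the normal livers and 43.2, 72.9 and 112 in the tumors. The normal livers lay close together, and the tumors spread over a wider range below them. The fall was 3.13-fold (log2 fold change -1.65, SE 0.33, adjusted p = 0.0121 in limma). Of the 4 other Igf1 probes, 3 also fell, with log2 fold changes of -1.63, -1.97 and -2.001, and the first of these shares 40 of its 60 bases with the main probe. The exception was the probe designed to transcript NM_184052, whose first bases are printed above. It read 11.6, 5.14 and 5.07 in the normal livers and 5.07, 4.91 and 5.17 in the tumors. Apart from normal liver 1 its samples were nearly level, and it was not called (log2 fold change -0.41, 95% interval from -1.19 to 0.37, adjusted p = 0.369). The 2 probes' changes differed by -1.24 on the log2 scale within arrays, with groups that overlapped and an exact permutation p of 0.2.

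Igfals (chr17:24877844-24882011), which codes for the acid-labile subunit that holds Igf1 in its circulating complex, fell by about as much as Bcl6. Its values were 14.6, 13.2 and 13.9 in the normal livers and 0.505, 2.87 and 3.51 in the tumors. The normal livers agreed closely, and tumor 1 was far below the other tumors. The log2 fold change was -3.01 (SE 0.70, adjusted p = 0.0200 in limma), that is 8.06-fold lower, and 0.652% of all tested genes fell further. Igfals is on the study's shortlist of genes with a promoter methylation difference and an opposite expression change on these same arrays. A literature search for cancer also entered that choice. The direction on the arrays is thus not independent evidence. Leaving out any one normal liver put Igfals just past the threshold, with adjusted p of 0.0598, 0.0576 and 0.0567 in limma, at log2 fold changes from -3.05 to -2.98. Without tumor 1 the log2 fold change was smaller, -2.13, and remained called, and without tumor 3 it was -3.53.

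The 3 genes whose pattern over the 6 arrays was most like that of Igfals were Adam11, Avpr1a and Prodh, by the root mean square difference of centred log2 values over 16481 genes well above background on all arrays. The difference was 0.11 for Adam11, 0.16 for Avpr1a, a vasopressin receptor gene, and 0.19 for Prodh, the proline dehydrogenase gene. Adam11 is also on the study's shortlist, and its second probe had a log2 fold change of only -0.09. Avpr1a read 5.78, 5.07 and 4.79 in the normal livers and 0.221, 1.31 and 1.18 in the tumors, again with tumor 1 lowest.

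The repressor gene Bcl6 (chr16:23965050-23988866) had a log2 fold change close to that of Igfals. It read 9.50, 25.6 and 25.1 in the normal livers and 1.45, 1.64 and 5.08 in the tumors. Normal liver 1 was below the other normal livers and still above every tumor. The log2 fold change was -2.99 (SE 0.59, adjusted p = 0.0116 in limma), or 7.97-fold lower. Leaving out 1 sample at a time kept the call, at log2 fold changes from -3.57 to -2.66. Cux2 (chr5:121857962-122050415) had 2 probes, and neither was well above background on any array. Its values were 0.0480 to 0.127 with one probe and 0.0206 to 0.0346 with the other, and no fold change is given.

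**Figure D2:**
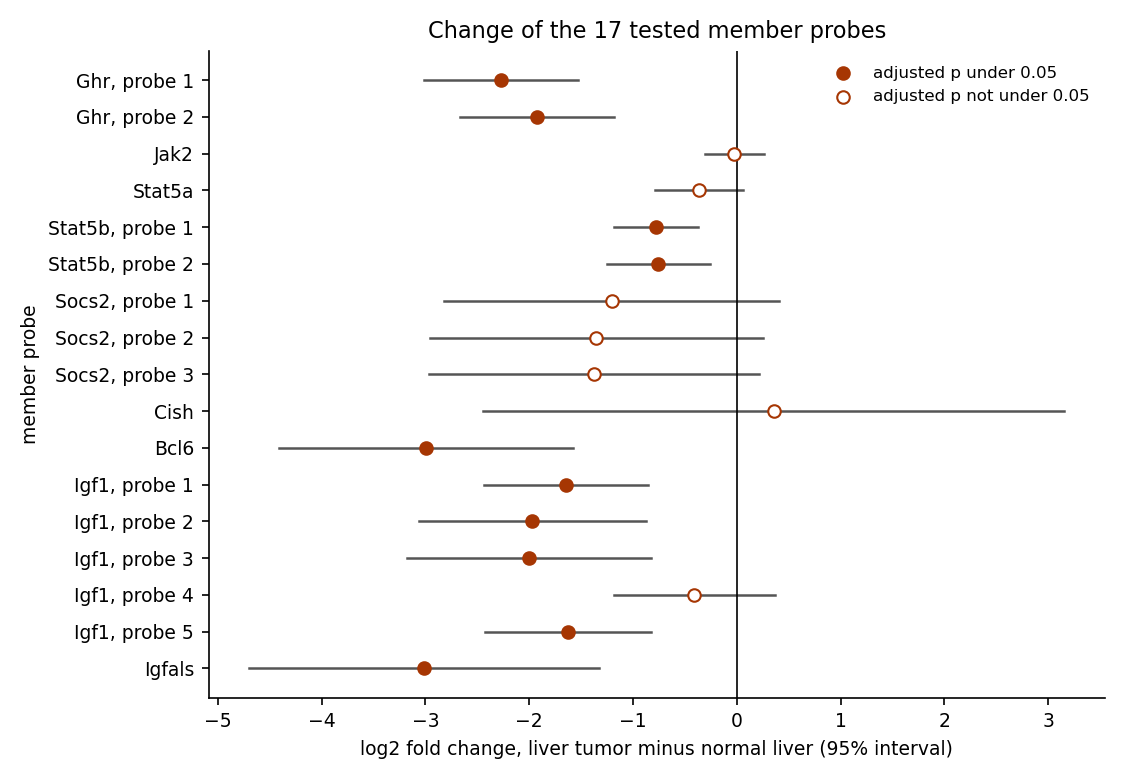
Log2 fold change, liver tumor minus normal liver, of the 17 tested member probes, with bars for the 95% interval; filled points had an adjusted p under 0.05. Probe 1 of a gene is the one described as its value, Ghr probe 2 is the probe of NM_010284 and Igf1 probe 4 that of NM_184052, which at -0.41 stands apart from the other Igf1 probes.

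Tumor 1 was lowest for each of the 5 members that fell, and Stat5b differed from the others in the order of tumors 2 and 3. Relative to the mean of the normal livers, tumor 1 was at -3.00, -1.01, -2.36, -4.78 and -3.66 on the log2 scale for Ghr, Stat5b, Igf1, Igfals and Bcl6. Tumor 3 was at -1.84, -0.72, -0.98, -1.98 and -1.85 for the same genes. Tumor 2 lay between the other tumors except for Stat5b, where it was highest at -0.61. The SD between tumors was larger than that of 94.0% of all tested genes for Ghr, 95.2% for Igf1, 99.3% for Igfals and 98.0% for Bcl6, but of 56.9% for Stat5b.

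**Figure D3:**
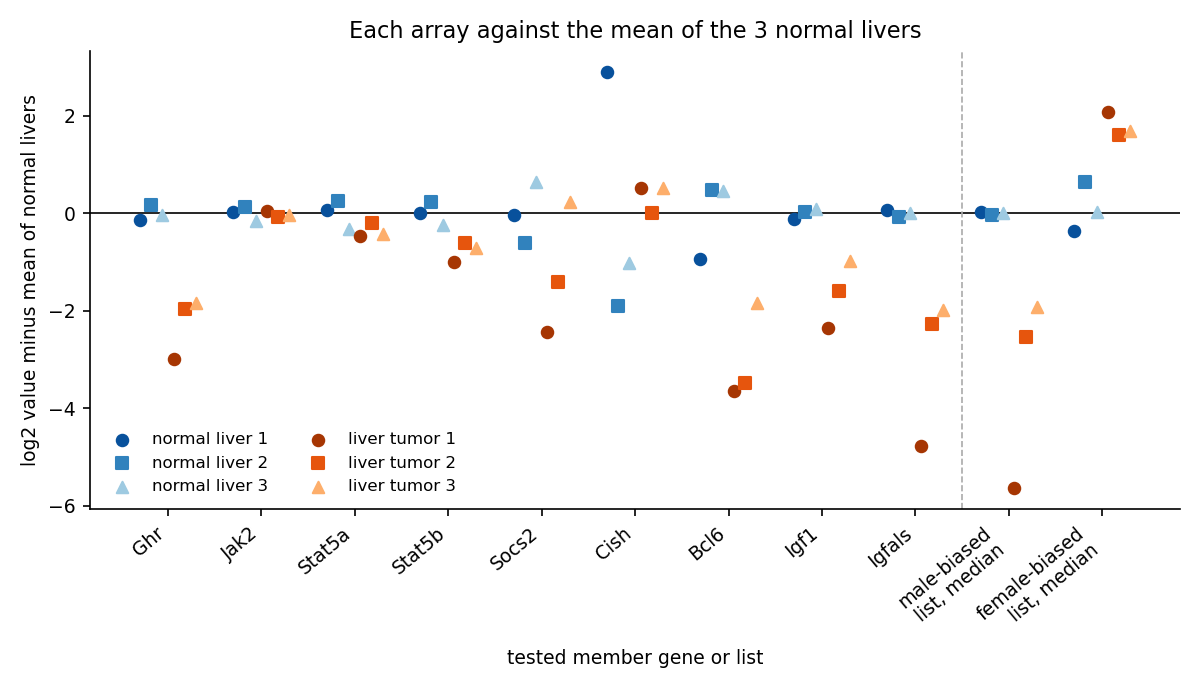
Log2 value of each array minus the mean of the 3 normal livers, for the 9 tested members and, right of the dashed line, for the medians of the male-biased and female-biased gene lists; blue points are normal livers and orange points tumors. Tumor 1 is lowest for all 5 members that fell and for the male-biased median, at -5.64, and highest for the female-biased median, at 2.07.

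Around the members, the ligand genes gave little signal in liver. Gh, Prl and Lep, which code for growth hormone, prolactin and leptin, were at background level on all arrays, and the only one of the 5 ligand genes tested, Thpo, was not called (log2 fold change 0.20). Among 15 other receptors of the cytokine class, 12 were tested, 4 fell and 3 rose, against 21.0% and 13.1% of all tested genes. The prolactin receptor gene Prlr, close kin of Ghr, read 13.0, 19.8 and 18.9 in the normal livers and 1.21, 3.95 and 4.37 in the tumors. It was thus below all normal livers in every tumor, with tumor 1 lowest, at a log2 fold change of -2.62 (SE 0.50, adjusted p = 0.0103 in limma). Lifr, the leukemia inhibitory factor receptor gene, fell by 1.77 on the log2 scale, Il6ra fell by 0.64 and Il6st fell by 0.50. Osmr, the oncostatin M receptor gene, rose by 1.25, the erythropoietin receptor gene Epor by 0.98 and Crlf2 by 0.64. Il6ra and Il6st were not called with spike-in scaling. The median of the 12 log2 fold changes was 0.07.

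None of the 7 other Jak and Stat genes tested was called in limma. Their median log2 fold change was 0.08, 2 were higher at an unadjusted p under 0.05, and none was lower by that measure. Stat4 was at background level on all arrays. With quantile normalization or spike-in scaling 1 of the 7 was called higher. Of 17 tested inhibitors and adaptors of cytokine receptors other than Socs2 and Cish, 4 rose and 1 fell. Of all tested genes, 13.1% rose and 21.0% fell. Sirpa, a surface protein gene whose product recruits phosphatases, rose from 3.96, 2.86 and 3.60 in the normal livers to 13.95, 13.0 and 13.5 in the tumors, which is a rise of 1.97 on the log2 scale. Socs5 rose by 1.32 on the log2 scale, the adaptor gene Sh2b2 by 1.28 and Pias1 by 0.46, while Socs4 fell by 0.64, and the calls of Pias1 and Socs4 were lost with spike-in scaling.

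Among 9 tested partners of the insulin-like growth factors, 2 rose and 2 fell, against 13.1% and 21.0% of all tested genes. Igfbp1, which codes for a binding protein induced in fasting, read 37.2, 118 and 43.3 in the normal livers and 994, 1062 and 645 in the tumors. Every tumor was far above every normal liver, at a log2 fold change of 3.94 (SE 0.45, adjusted p = 0.00215 in limma). Igf2r rose by 0.69 on the log2 scale. Igfbp5 fell by 1.66 and Igfbp4 fell by 0.62, the latter not called with spike-in scaling, and Igf2 was at background level throughout.

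The sex-biased liver genes, which depend on the pattern of growth hormone release, moved in part, and not all in the direction of their list. Of all tested genes, 21.0% were called lower and 13.1% higher. Of 14 tested male-biased genes, 6 fell, 2 rose and 6 were not called. Of 19 tested female-biased genes 12 rose and none fell, neither by limma's adjusted p nor at an unadjusted p under 0.05. Some of the 12 passed the filter on dim probes through the tumors alone, so no call but higher was open to them. With only probes well above background on all 6 arrays, 5 female-biased genes were called higher and 8 male-biased genes lower. That filter tested fewer genes of both lists, so these are not counts out of 19 and 14. Over all probes it gave 2403 called higher and 4884 called lower. The median log2 fold change was -3.38 for the male-biased and 1.62 for the female-biased genes, the latter 0.88 with normexp background correction. Of the 7 female-biased genes that were not called, 5 had a fold change below 0 on the log2 scale. All 6 male-biased genes that were not called also had every tumor below every normal liver and an unadjusted p under 0.05 in limma. Every tumor lay below every normal liver in 33.5% of all tested genes. At an unadjusted p under 0.05 in limma, 7184 of the 24901 tested probes were lower. Among the limma fits the count of male-biased genes called lower ranged from 2 without a filter on dim probes to 12 with normexp background correction or spike-in scaling. Left out one at a time, tumor 1 raised it to 11, and normal liver 2 or normal liver 3 lowered it to 3.

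Cyp7b1, the oxysterol hydroxylase gene, was the male-biased gene with the largest called fall. It read 292, 265 and 363 in the normal livers and 0.866, 23.4 and 35.2 in the tumors, and its log2 fold change was -5.09 (SE 1.33, adjusted p = 0.0292 in limma). Tumor 1 was far below the other tumors, as for Igfals. On the log2 scale Susd4 fell by 4.61, Nudt7 fell by 2.51 and the steroid hydroxylase gene Cyp2d9 fell by 2.20, each with tumor 1 lowest. Serpina12 and Cyp2u1, listed as male-biased, rose by 1.49 and 0.79.

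Cyp2b13, a female-biased cytochrome P450 gene, read 24.6, 10.3 and 10.3 in the tumors and was dim, below the level called well above background, in all 3 normal livers. Tumor signal was at least 106-fold higher, a bound taken against the mean of the dimmest signal that is well above background on each normal liver array or the probe's own, whichever is higher. The transporter gene Slc22a27 was at least 19.8-fold higher by the same bound, and Abcd2, a peroxisomal fatty acid transporter gene, at least 5.96-fold. Cyp2b13, Slc22a27 and Abcd2 passed the filter through the tumors alone, so no call but higher was open to them, and no p-value is given. Prom1 was measured on all arrays and read 0.291, 0.325 and 0.332 in the normal livers and 25.5, 32.9 and 25.8 in the tumors, which is a rise of 6.46 on the log2 scale. The tumors held together for Prom1, with tumor 2 highest. Cyp2b13, Slc22a27 and Cyp2d9 belong to families of closely similar copies, which a probe may not tell apart. Of the 3 tested lipid genes that the axis is known to hold down, the lipid droplet gene Cidec rose by 4.32 on the log2 scale and Pparg by 1.03, and the fatty acid uptake gene Cd36 had a log2 fold change of 1.71 with adjusted p = 0.0546.

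**Figure D4:**
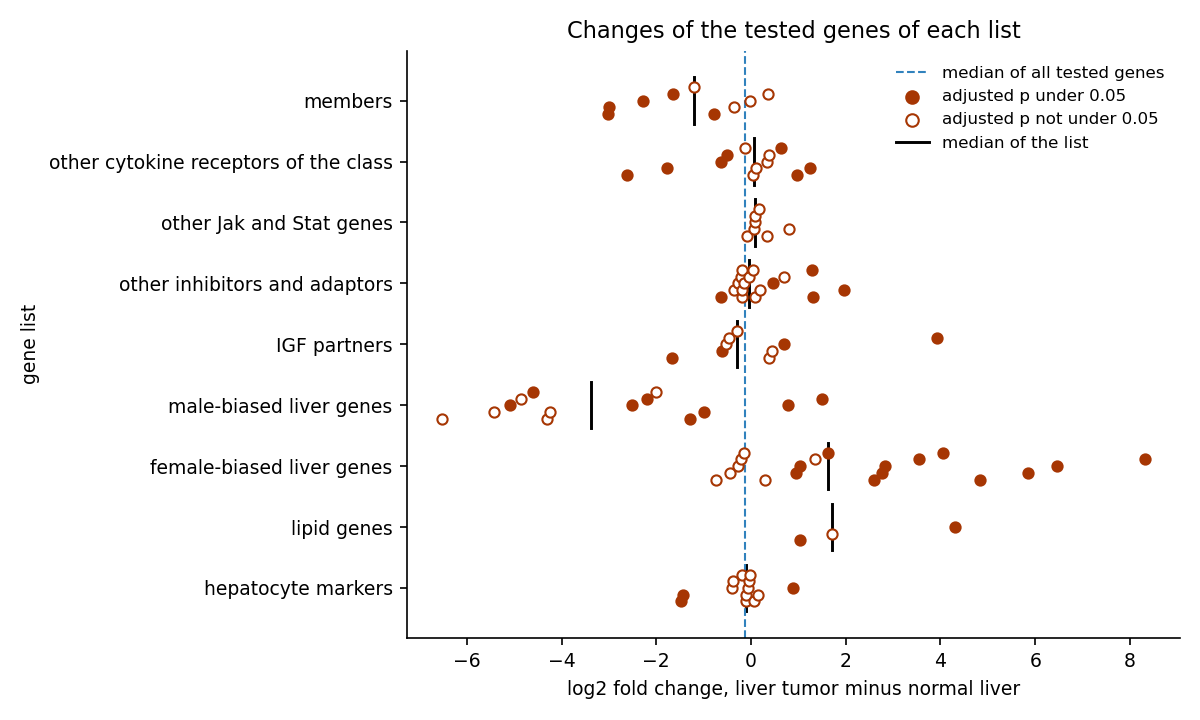
Log2 fold change, liver tumor minus normal liver, of each tested gene of the members and of 8 lists, with black bars for the list medians and a dashed line for the median of all tested genes; filled points had an adjusted p under 0.05. The male-biased median lies at -3.38 and the female-biased at 1.62, whereas the other Jak and Stat genes lie at 0.08 and the hepatocyte markers at -0.10. Some female-biased genes passed the filter on dim probes through the tumors alone, so only a rise was open to them.

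Hepatocyte markers were near level in both groups. Of 13 such genes, all well above background on all arrays, 2 fell, Cps1 and Tat, and Apoa1 rose, with a median log2 fold change of -0.10. The log2 fold change was -0.06 for Alb and 0.16 for Hnf4a, and the summed value of the list was 9558 to 10243 in the normal livers and 9561 to 10002 in the tumors. Of 9 tested macrophage and Kupffer cell markers 6 fell (4 with quantile normalization and 3 with spike-in scaling), with a median log2 fold change of -1.12 and summed values of 83.6 to 134 in the normal livers and 43.6 to 69.0 in the tumors. Of 9 stellate cell and fibroblast markers Pdgfrb, Lrat, Des and Dcn fell and Col1a1 and Reln rose. Their sum was 86.8 to 104 in the normal livers and 29.5 to 49.3 in the tumors, a sum held mostly by Dcn, while the median log2 fold change was 0.29. Of 8 endothelial markers Stab2 and Clec4g fell, with a median of -0.01 and sums of 106 to 121 and 82.7 to 91.8. Of 5 tested lymphocyte markers Cd4 alone rose, with a median of 0.03, and Cd8a stayed at background level. The lymphocyte sum was 66.5 to 70.4 in the normal livers and 142 to 245 in the tumors, also held mostly by Cd4. Of all tested genes 21.0% were called lower and 13.1% higher, for comparison with each of these marker counts. The shares called of the endothelial and lymphocyte markers were near those of all tested genes. With spike-in scaling no endothelial marker was called lower and 1 was called higher, 3 stellate cell markers were lower and 3 higher, 2 lymphocyte markers were higher, and the hepatocyte median was 0.09. None of the 4 tested neutrophil or the 4 tested cholangiocyte markers was called. The part of these cells in the changes of the members was not tested.

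The promoters of the members were searched for the letters TTCNNNGAA, the consensus bound by Stat5, which reads the same on both strands. Each RefSeq window of GRCm38.p6 held 250 bases before and 50 after an annotated start. Of 32851 windows over all genes, 8.30% held a match, and of 27025 genes 9.55% had one in any of their windows. Among 9 members with windows, 3 had a match, Cish, Igfals and Bcl6, in 5 of 16 windows. Bcl6 and Igfals were among the members that fell and Cish was not. The matches are printed with their flanks, in lower case with the match in capitals, on the strand of the gene.
Cish, chr9:107296654-107296683, plus strand: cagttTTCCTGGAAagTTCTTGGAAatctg
Igfals, chr17:24877603-24877621, plus strand: ataatTTCTCAGAAaagag
Igfals, chr17:24878168-24878186, plus strand: aggtgTTCCTAGAAgaggc
Bcl6, chr16:23988957-23988975, minus strand: attagTTCTCAGAAttcca
Bcl6, chr16:23981438-23981456, minus strand: gcggcTTCCTGGAAagtta
Bcl6, chr16:23981392-23981410, minus strand: gagtgTTCTGTGAAatcct
Bcl6, chr16:23981358-23981376, minus strand: ctacgTTCCGGGAAtgaga

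The Cish window held 2 matches 11 bases apart, the first beginning at the annotated start itself, and 0.457% of all windows held 2 or more. The 3 Bcl6 matches in one window began 168, 122 and 88 bases before a second annotated start, and 11 of all windows held as many. The Igfals matches began 236 and 58 bases before 2 different starts. These are matches of letters, and no binding was measured. The windows of Ghr, Jak2, Stat5a, Stat5b, Igf1 and Cux2 held no match, which says only that these letters are not in these windows.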

How the data were processed

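Total RNA of 3 normal livers and 3 liver tumors was labelled with 1 dye and hybridised to SurePrint G3 Mouse GE arrays. The authors deposited scanner output with processed signal intensity, background subtracted and spatially detrended, from Feature Extraction (10.7.3.1 in the file headers, 12.0.3.1 in the submitters' processing notes), and a table of each signal as a ratio to the array's 75th percentile. From the intensities, log2 of the signal minus log2 of the 75th percentile over all spots was computed, without control spots and outlier spots, and spots of a probe were averaged. Tests covered 24901 of 55681 probes, or 18545 of 34741 genes, kept where every array of one group or the other called the probe well above background. They used limma 3.58.1 in R 4.3.3 (lmFit and eBayes, two-sided, Benjamini-Hochberg adjustment over all tested probes, threshold 0.05). The probe brightest on average over the 6 arrays, on the log2 scale, stands for a gene, and the others of a member are given beside it. Arrays were 0.989 to 0.992 correlated between normal livers, 0.980 to 0.990 between tumors and 0.914 to 0.950 between the groups, and 44.7% to 48.9% of spots were well above background. The number of arrays limits the precision.

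The members and lists were chosen with earlier results of these data known. All 10 members are named, with up to 4 called genes of each pathway list per direction and those of a count of 5 or fewer. Marker lists are given by counts and sums, with Alb and Hnf4a, and their other named genes were chosen after the values were seen. Cyp3a41a and Selenbp2 were not matched to a probe. Positions and promoter windows are from RefSeq for GRCm38.p6, and Socs2 had no window in the table used. Of the probes, 27235 were named through their accession, 3581 through a symbol, 565 through a synonym and 24300 by the array design. Alternatives were normexp (offset 50), quantile normalization, percentile scaling without control probes, spike-in scaling, no filter and a stricter filter, the deposited ratios, a replicate block, eBayes with trend, averaging over a gene's probes, the methods' t-test in unpaired and paired form, and leaving out each sample. The fit was tested on simulated data. Python 3.11.15, pandas 2.3.3, numpy 2.4.6 and matplotlib 3.10.9 were used for tables and figures.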

Additional observations from a re-analysis of the deposited data

How the results depend on the processing

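Over 18 alternatives Ghr and Igf1 were called lower in 17 (all but the paired form of the methods' t-test), Bcl6 in 16 (neither form of that test), Stat5b and Igfals in 13 each, and Jak2 and Stat5a in none. The 5 falling members kept their sign in all 18, while the sign of Cish was negative in 4. The members called lower numbered 5 of 9, but 3 without a filter on dim probes or with the unpaired methods' t-test, and 0 with its paired form, which called 0 probes higher and 0 lower of all tested, 0 male-biased genes lower and 0 female-biased genes higher. At an unadjusted p under 0.05 the paired form gave 2406 probes higher and 5014 lower and 4 members lower. Male-biased genes called lower numbered 12 with normexp or spike-in scaling and 2 without a filter, against 6. Female-biased genes called higher numbered 5 with the stricter filter, which tested fewer of them, and 6 with the unpaired test, against 12. Over all probes, limma called 3112 higher and 5127 lower. This became 2071 and 2603 without a filter, 1738 higher with the unpaired test, and 3307 and 1959 with spike-in scaling, which raised the median log2 fold change of all genes by 0.19. The share of calls that were higher was then 62.8%, and 46.8% with quantile normalization, against 37.8%. The cause of these differences was not tested.

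Left out one at a time, the samples moved the probes called lower between 2608 (without normal liver 2) and 4367, with 3399 without normal liver 3. They moved those called higher between 2346 and 2804, the members called lower between 3 (without normal liver 2) and 6 (without tumor 3, Socs2 added), the members called higher between 0 and 1 (Cish, without normal liver 1), the male-biased genes called lower between 3 (without normal liver 2 or normal liver 3) and 11 (without tumor 1), and the female-biased genes called higher between 9 and 10. With the replicate number as a block 2805 probes were higher and 4216 lower, and the block changed no member's call. Deviations of same-numbered samples correlated at 0.0687, 0.132 and 0.0506, and those of differently numbered samples at -0.139 to 0.055. Such deviations, taken from means of 3 arrays, cannot decide whether samples were paired. The labels name no pairs, so the numbers are not taken as pairs. Every result rests on 3 arrays per group, and slide cannot be told apart from tissue.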
